A study of Mus musculus with 8 samples.

Results

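Mutations in, or common variants near, 8 of the genes measured in mouse iris nuclei are linked to glaucoma in people: *Myoc*, *Cyp1b1*, *Loxl1*, *Lmx1b*, *Optn*, *Cav1*, *Cav2* and *Tmco1*. They were chosen by name, with earlier results of these data known, and all 8 were among the 22873 genes counted. The nuclei came from irides of wild type female albino mice of 6 to 8 weeks, with some ciliary body attached, and each library is a separate pool of irides. Irides were untreated (3 libraries, 14365 nuclei), constricted by 5% pilocarpine drops given hourly in the light (3 libraries, 8965 nuclei), or dilated by hourly drops of 5% phenylephrine and 1% cyclopentolate in the dark (2 libraries, 11027 nuclei). Drops were given for 6 hours and the eyes taken 30 minutes after the last one. The drops and the lighting changed together, so that their effects cannot be told apart.

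Libraries held 1274 to 7321 nuclei and 5189437 to 25136427 unique molecular identifiers (UMIs, each standing for 1 captured RNA molecule), no barcode was shared between any of the 28 pairs of libraries, and the authors assigned all 34357 nuclei to 10 cell types. Levels below are UMIs of a gene per 1000000 UMIs of the cell type in 1 library (CPM), and means are given with the SD over libraries. Nuclei of 1 library are not replicates of a condition. Every gene of the marker lists for stroma 1, stroma 2, endothelial cells, leukocytes, sphincter, dilator and iris pigment epithelium (PE) was detected in the cell type of that name in untreated libraries. Detection means at least 1 UMI over all such nuclei, and a stroma 2 marker, *Tfap2b*, was also detected in every other cell type. The cell types were defined from these same counts, so differences between cell types are described with no test.

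In glaucoma, retinal ganglion cells are lost, often with raised pressure in the eye. The pressure is set by the balance of aqueous humor made by the ciliary epithelium and fluid leaving at the angle between iris and cornea, through the trabecular meshwork. Myocilin (*Myoc*) is a secreted glycoprotein of the meshwork, and *Cyp1b1* encodes a cytochrome P450 enzyme whose loss causes congenital glaucoma. *Loxl1* encodes a lysyl oxidase that cross-links elastin and is the main susceptibility gene of exfoliation glaucoma, and *Lmx1b* encodes a homeodomain transcription factor mutated in nail-patella syndrome. Optineurin (*Optn*) is an autophagy receptor, *Cav1* and *Cav2* encode the coat proteins of caveolae (flask-shaped pits of the plasma membrane), and *Tmco1* encodes a membrane protein of the endoplasmic reticulum.

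*Cav2* and *Cav1* lie next to each other on the plus strand of chromosome 6 in the mouse genome mm10, *Cav2* at 17281185 to 17289115 and *Cav1* at 17306335 to 17341452, with 17219 bases between them. *Cyp1b1* occupies 79701537 to 79715061 on the minus strand of chromosome 17 and *Loxl1* 58287738 to 58313186 on the minus strand of chromosome 9. *Lmx1b* (33560965 to 33640511) and *Optn* (5020642 to 5064051) are both on the minus strand of chromosome 2, and *Myoc* (162639155 to 162649693) and *Tmco1* (167308378 to 167333978) on the plus strand of chromosome 1. The antisense gene *Gm15581* spans both caveolin genes, *4930551O13Rik* lies antisense to *Optn* and *Myocos* overlaps *Myoc* on the other strand. Whether strand was used in counting is not given in the sources used here, so that reads of these pairs may not be told apart.

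Promoter windows, from 250 bases before the start to 50 after it, were found for 7 of the 8 genes in RefSeq (build GRCm38.p6). The windows were searched on both strands for GCGTG, the core to which the aryl hydrocarbon receptor binds, because *Cyp1b1* is a known target of that receptor. The letters occur in 32.4% of all 32851 promoter windows. They occur 1 time in the window of *Cyp1b1*, 1 time in that of *Tmco1* and 3 times in that of *Optn*, and not in those of *Myoc*, *Lmx1b*, *Cav1* or *Cav2*. The windows of *Cyp1b1* (chr17:79715012-79715311, minus strand), the neighbors *Cav2* (chr6:17280935-17281234, plus strand) and *Cav1* (chr6:17306085-17306384, plus strand) are shown 5′ to 3′, the caveolin pair because both genes were highest in the same pair of cell types, with matches to GCGTG or its reverse complement in capitals.
Cyp1b1: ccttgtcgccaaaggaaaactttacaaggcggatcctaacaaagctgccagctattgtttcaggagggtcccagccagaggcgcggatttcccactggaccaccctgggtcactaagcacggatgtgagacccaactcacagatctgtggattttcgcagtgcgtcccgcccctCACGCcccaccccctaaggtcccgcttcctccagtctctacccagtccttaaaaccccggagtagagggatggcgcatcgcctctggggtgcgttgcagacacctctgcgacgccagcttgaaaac
Cav2: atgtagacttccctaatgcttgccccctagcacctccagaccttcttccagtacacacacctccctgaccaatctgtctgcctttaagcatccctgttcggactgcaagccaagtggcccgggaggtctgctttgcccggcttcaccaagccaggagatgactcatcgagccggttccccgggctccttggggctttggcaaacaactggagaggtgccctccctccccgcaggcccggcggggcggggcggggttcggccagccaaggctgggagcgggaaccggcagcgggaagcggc
Cav1: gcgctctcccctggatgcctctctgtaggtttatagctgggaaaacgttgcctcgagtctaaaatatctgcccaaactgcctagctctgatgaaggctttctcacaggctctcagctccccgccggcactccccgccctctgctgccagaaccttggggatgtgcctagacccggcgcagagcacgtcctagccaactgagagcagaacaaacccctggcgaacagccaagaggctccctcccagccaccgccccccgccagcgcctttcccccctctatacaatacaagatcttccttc
A match is a description of the letters and says nothing of binding in these cells.

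The level of each gene per kilobase of gene, over all untreated nuclei, set *Optn* at 3.70, *Loxl1* at 2.70, *Tmco1* at 2.61 and *Lmx1b* at 1.72 CPM per kilobase. The others were lower, at 0.661 for *Cav2*, 0.532 for *Cav1*, 0.323 for *Cyp1b1* and 0.132 for *Myoc*. Not divided by length, *Optn* stood at 161, *Lmx1b* at 137, *Loxl1* at 68.8 and *Tmco1* at 66.9 CPM. *Cav1* then stood at 18.7, *Cav2* at 5.24, *Cyp1b1* at 4.37 and *Myoc* at 1.39 CPM. The places of *Lmx1b* and of the caveolins in the order thus depend on the division. Whether UMIs of the 3′ kit used rise with gene length was not tested. *Lmx1b* and *Myoc* had most of their UMIs in 1 cell type and *Cyp1b1* in a pair of them. The caveolins had their highest levels in another pair, and *Optn*, *Loxl1* and *Tmco1* were detected in every cell type of the untreated iris. *Lmx1b* was also detected in each, at 4.88 to 32.1 CPM outside stroma 2.

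**Figure D1:**
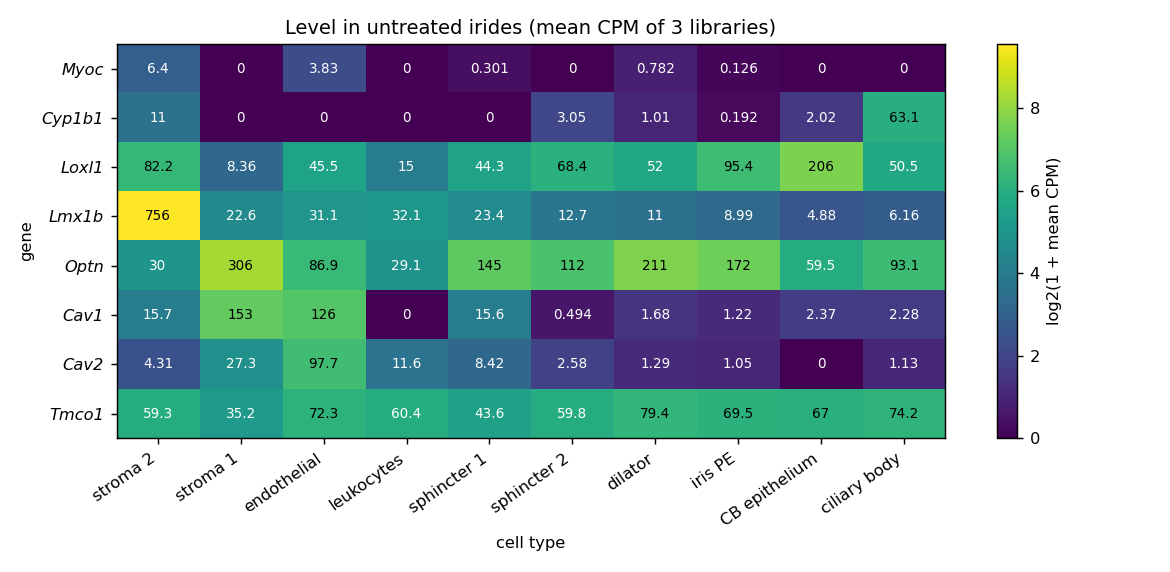
Mean level of the 8 genes (rows) in each of the 10 cell types (columns) of the untreated iris, printed as mean CPM of 3 libraries and colored as log2(1 + mean CPM). *Lmx1b* stands at 756 CPM in stroma 2 and *Tmco1* between 35.2 and 79.4 CPM in all cell types.

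*Lmx1b* was the most concentrated of the well-counted genes. In stroma 2, the fibroblast-like cells, it stood at 717, 738 and 814 CPM in the 3 untreated libraries, and 92.6% of its 6292 untreated UMIs were in these nuclei. The next cell type, leukocytes, stood at 32.1 ± 28.2 CPM (SD, n = 3) and rested on 21 UMIs. The highest library of any other cell type, dilated endothelial cells, stood at 103 CPM from 5 UMIs, and the lowest of the 8 stroma 2 libraries at 280 CPM.

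Low *Lmx1b* levels in the other 9 cell types, from 4.88 CPM in ciliary body epithelium to 32.1 CPM in leukocytes, came with UMIs of *Tfap2b*, a transcription factor gene used as a marker of stroma 2. *Tfap2b* stood at 2698 ± 295 CPM in stroma 2, 165 ± 57.5 CPM in leukocytes and 60.6 ± 74.5 CPM in endothelial cells. There were 0.274 UMIs of *Lmx1b* for each UMI of *Tfap2b* in stroma 2, 0.239 in leukocytes, 0.516 in endothelial cells and 0.840 in stroma 1. With predicted doublets left out, *Lmx1b* had 1 UMI in place of 21 in leukocytes and 6 in place of 16 in endothelial cells, while stroma 1 had 79 both times. Over all libraries, predicted doublets were 8.53% of leukocyte, 6.23% of endothelial and 0.130% of stroma 1 nuclei. Leaving them out could thus hardly change the stroma 1 count. The part of mixed nuclei in the higher of the low *Lmx1b* levels was otherwise not tested.

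Per nucleus, 72.7% of 3040 untreated stroma 2 nuclei had an *Lmx1b* UMI (95% Wilson interval 71.1 to 74.3%, counting error only), against 5.50% of 1292 stroma 1 nuclei, at median depths of 2425 and 2691 UMIs. After thinning each nucleus to 1000 UMIs these shares were 48.8% and 2.19%. Genes with the most similar profile over the 10 cell types were *Nup62cl*, *Ntrk3* and *Tbx3*, each highest in stroma 2 (Pearson r of log2(1 + CPM) 0.980, 0.973 and 0.972 over 10 cell types that share 3 libraries, a description).

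*Myoc* was rare, with 145 UMIs in 83 of the 34357 nuclei. Stroma 2 held 118 of these UMIs, in 56 of 6763 nuclei, and the other 27 were single UMIs in 27 nuclei of other types. Untreated stroma 2 libraries stood at 9.67, 1.88 and 7.64 CPM, constricted libraries at 1.68, 5.38 and 26.9 CPM and dilated libraries at 4.04 and 7.59 CPM, and the 3 conditions overlapped. No UMI was found in stroma 1, sphincter 2, leukocytes or ciliary body in any library, where in untreated stroma 1, for example, a count of 0 allows up to 0.846 CPM. An untreated mean of 3.83 CPM in endothelial cells rested on 2 UMIs, and was 6.44 CPM with predicted doublets left out, beside 6.45 CPM in stroma 2.

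Most *Myoc*-positive stroma 2 nuclei held 1 UMI (40 of 56), but 16 held more. The highest constricted library owed 24 of its 41 UMIs to 1 nucleus of 3806 UMIs in all, and without that nucleus it stood at 11.2 CPM. The next nuclei held 9, 6 and 6 UMIs and came from other libraries in all but 1 case, and none of these 4 was a predicted doublet.

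**Figure D2:**
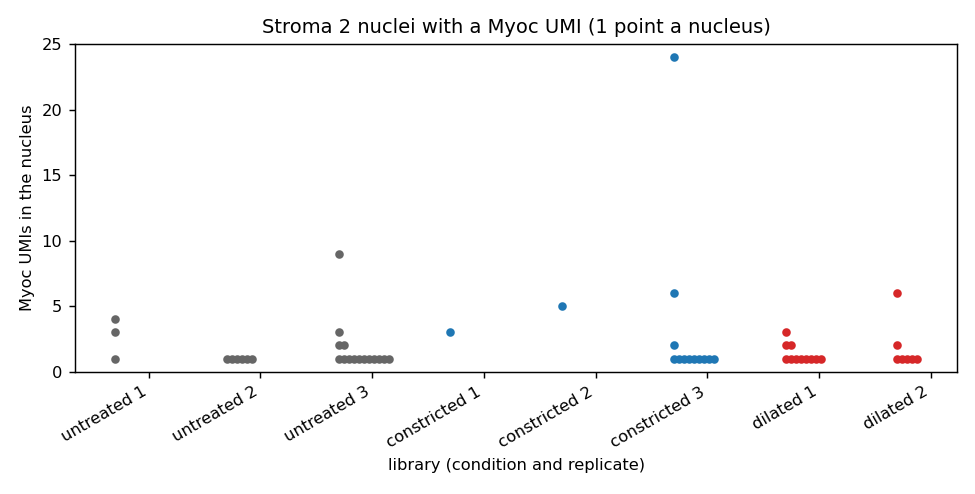
*Myoc* UMIs (vertical axis) in each stroma 2 nucleus with at least 1 such UMI, by library (horizontal axis; grey untreated, blue constricted, red dilated). Of 56 nuclei, 40 sit at 1 UMI and 1 nucleus of constricted replicate 3 at 24.

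*Cyp1b1* was a gene of the ciliary body nuclei and, at a lower level, of stroma 2. In ciliary body the untreated libraries stood at 49.1, 69.3 and 70.9 CPM (17, 35 and 21 UMIs), the constricted ones at 41.4, 30.0 and 70.0 CPM and the dilated ones at 56.9 and 51.6 CPM. The conditions overlapped. In stroma 2 it stood at 18.1, 5.94 and 9.06 CPM without treatment, 5.71-fold lower in the mean than in ciliary body, and the libraries of the 2 cell types did not overlap. The log2 ratio of these means, 2.51, was 2.14 to 3.22 with an untreated library left out, the highest without replicate 1.

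Ciliary body epithelium, the cell type that shares the dissection with ciliary body, stood at 2.02 ± 2.08 CPM of *Cyp1b1*, from 3 UMIs. Stroma 1, sphincter 1, leukocytes and endothelial cells had no *Cyp1b1* UMI in any of the 8 libraries. A count of 0 allows up to 0.846 CPM in untreated stroma 1 and 7.82 CPM in untreated endothelial cells, the second of which is not far below the untreated stroma 2 mean of 11.04 CPM. A *Cyp1b1* UMI was found in 17.1% of 346 untreated ciliary body nuclei and 1.94% of stroma 2 nuclei, or 8.19% and 1.16% after thinning. *Birc6*, *Acss2* and *Tfam* had the most similar profiles (r = 0.918, 0.900 and 0.871 over the 10 cell types).

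The 2 caveolin genes were highest in endothelial cells and stroma 1. *Cav1* stood at 142, 152 and 167 CPM in stroma 1 and at 58.2, 165 and 155 CPM in endothelial cells of untreated irides, and these ranges overlapped. The log2 ratio of the *Cav1* means of stroma 1 to endothelial cells was 0.28, and it turned to -0.082 with predicted doublets left out, -0.012 over all 8 libraries and -0.0059 without untreated replicate 1. *Cav2* stood at 155, 63.3 and 74.8 CPM in endothelial cells and at 32.3, 25.6 and 24.0 CPM in stroma 1, 3.58-fold apart in the mean with no overlap.

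Endothelial values rest on few molecules, 56 UMIs of *Cav1* and 31 of *Cav2* over 3 libraries. Stroma 2 and sphincter 1 followed for *Cav1* at 15.7 ± 2.57 and 15.6 ± 5.56 CPM, a difference within the spread between libraries. Muscle of the dilator, iris PE and both ciliary types stood at or under 2.37 CPM of *Cav1*, and leukocytes had none. The antisense gene *Gm15581* had the profile most like that of *Cav1* (r = 0.946), and it shares the locus. *Fam174b* and *Lrrk2* followed (r = 0.934 and 0.929), and for *Cav2* similar genes were *Iffo2* and *Virma* (r = 0.949 and 0.947).

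*Optn* was highest in stroma 1, the melanocyte-like cells, at 287, 312 and 318 CPM in the untreated libraries. Dilator muscle followed at 211 ± 9.71 CPM and iris PE at 172 ± 10.7 CPM, and neither overlapped the cell type above it. From iris PE down to ciliary body epithelium, each cell type overlapped its neighbor in the order. Stroma 2 was lower, at 26.6, 29.1 and 34.3 CPM. Leukocytes stood at 29.1 ± 15.1 CPM from 14 UMIs, and at 15.5 ± 18.3 CPM from 3 UMIs with predicted doublets left out, where stroma 2 stood at 29.7 ± 3.43 CPM. An *Optn* UMI was found in 51.7% of stroma 1 and 6.97% of stroma 2 nuclei, or 27.4% and 2.91% after thinning. Similar profiles were those of *C430049E01Rik* and *Gm11659* (r = 0.925 and 0.907).

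*Tmco1* varied least, from 35.2 ± 1.00 CPM in stroma 1 to 79.4 ± 10.3 CPM in dilator muscle, and every cell type overlapped its neighbor in the order. *Vps28*, *Myof* and *Kantr* were most like it (r = 0.935, 0.921 and 0.899). *Loxl1* led in ciliary body epithelium at 171, 251 and 196 CPM, 2.16-fold over iris PE with no overlap. Iris PE, stroma 2, sphincter 2, dilator muscle, ciliary body, endothelial cells and sphincter 1 followed from 95.4 down to 44.3 CPM with neighbors overlapping. The endothelial value, 45.5 CPM from 16 UMIs, was 26.0 CPM from 8 UMIs with predicted doublets left out, below the 39.8 CPM of sphincter 1. Stroma 1 was lowest at 8.36 ± 2.63 CPM. *H6pd*, *Acss3* and *Gm11802* had the most similar profiles (r = 0.954, 0.947 and 0.941), all highest in ciliary body epithelium.

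To ask whether pupil size state changed these genes, summed UMIs of all genes were fitted in each cell type with edgeR's quasi-likelihood test, and a gene was called where its absolute log2 fold change was above 0.6 and its Benjamini-Hochberg adjusted p under 0.05 over the genes tested there. *Optn* and *Tmco1* had enough UMIs to be tested in 8 cell types, *Loxl1* in 7, *Lmx1b* in 5, *Cyp1b1*, *Cav1* and *Cav2* in 2 and *Myoc* in 1, which made 35 tests in each comparison. No member could be tested in endothelial cells or leukocytes. With dilation 1 of the 35 was called, where 3.34% of all 85092 tests were called, and 9 of 35 (25.7%) had an unadjusted p under 0.05, against 13.1% of all tests. Libraries were grouped here by library number into series (2 to 4, 13, and 15 to 18). The paper's 5 processing batches and 2 sequencing runs are not given per library. In dilator muscle, iris PE and stroma 2, libraries of the same series deviated from their group means together (correlations of 0.13 to 0.54). Deviations of the 2 dilated libraries mirror each other, so that these correlations are not independent. A term for series gave 4 calls in the 35 with dilation. These were *Loxl1* in dilator muscle and stroma 2, *Lmx1b* in stroma 2 and *Optn* in sphincter 2. The term also raised calls over all genes in ciliary body (5 to 42) and ciliary body epithelium (1 to 26). The share of all tests called with it is not given here. With constriction 0 of 35 were called by edgeR and 0 by DESeq2, where 0.0118% of all tests were called by edgeR. At an unadjusted p under 0.05 there was 1 of the 35 (2.86%), against 5.25% of all tests.

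*Loxl1* rose in dilator muscle with dilation. The untreated libraries stood at 55.5, 52.4 and 48.2 CPM, the constricted ones at 67.2, 46.5 and 56.6 CPM and the dilated ones at 115 and 83.0 CPM. Both dilated libraries were above all 6 others, which overlapped each other. The log2 fold change against untreated was 1.12 (SE 0.17, edgeR adjusted p 0.000831), a 2.17-fold rise. In such sums, more expressing nuclei and more RNA per nucleus cannot be told apart. Of all genes tested in dilator muscle 13.3% were called, and 7.2% were called higher.

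The share of dilator nuclei with a *Loxl1* UMI was 16.9%, 14.6% and 13.7% in the untreated libraries and 30.6% and 22.1% in the dilated ones, at median depths of 3926, 3380, 3345, 3800 and 3660 UMIs. Thinned to 1000 UMIs, the shares were 6.25%, 5.41% and 4.14% against 11.3% and 6.67%. Library numbers fall into 3 series, of which a pair hold both conditions, and within these the dilated library stood 2.08-fold and 1.65-fold over its untreated libraries. In dilator nuclei the summed level of the 3 dilator markers *Adra1a*, *Nos1* and *Myh11*, all detected, went from 2406 to 2832 CPM in untreated libraries to 1583 to 1623 CPM in dilated ones. The summed level of 3 pigment epithelium markers, all detected, was 1689 to 2001 CPM and 1905 to 1925 CPM. The part of these shifts in the result was not tested.

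Without TMM, the scaling that corrects for a few strongly changed genes, the median dilator gene moved by -0.16 on the log2 scale, and the split of all calls went from 1109 higher and 945 lower to 726 higher and 1532 lower. *Loxl1* then stood at 0.94 (SE 0.19, adjusted p 0.00461). It was called in dilator muscle under all 16 other fits, with log2 fold changes of 0.94 to 1.26 and adjusted p values of 8.86e-07 to 0.0120.

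**Figure D3:**
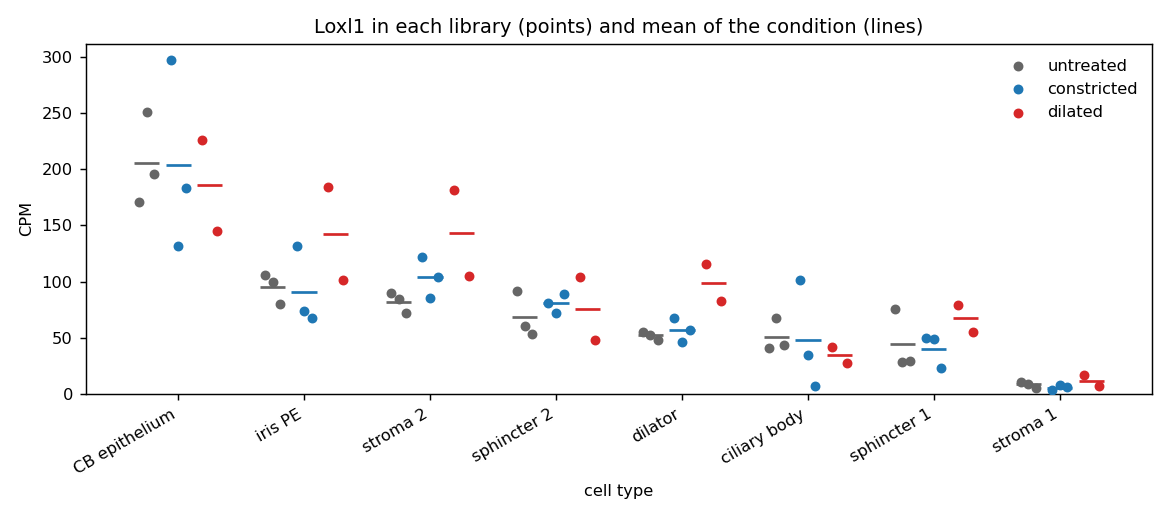
*Loxl1* level in CPM (vertical axis) in each library (points; grey untreated, blue constricted, red dilated), with the mean of each condition as a line, in 8 cell types. In dilator muscle both dilated libraries, at 115 and 83.0 CPM, sit above all others.

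In stroma 2, *Loxl1* stood at 89.4, 84.8 and 72.5 CPM without treatment and at 182 and 105 CPM after dilation, a log2 fold change of 0.86 (SE 0.22) that was not called (edgeR adjusted p 0.0781) but was with library series as a term (0.75, SE 0.17, adjusted p 0.0271). Constricted stroma 2 libraries reached 122 CPM and overlapped the dilated ones. Iris PE gave 0.63 (SE 0.27, adjusted p 0.493), with dilated libraries at 184 and 101 CPM and untreated ones at 106, 99.9 and 80.1 CPM. Sphincter 1 gave 0.93 (SE 0.38, adjusted p 0.321) on 14 to 32 UMIs in each untreated and dilated library. Dilated replicate 1 was above dilated replicate 2 in every one of the 8 cell types plotted.

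Ciliary body epithelium, where *Loxl1* is highest, stood at 226 and 145 CPM after dilation, within the untreated and constricted range, with a log2 fold change of -0.09 (SE 0.27). Its nuclei made up 7.59% and 3.21% of the dilated libraries against 2.09 to 5.34% of the untreated ones. In stroma 1, the cell type with the least *Loxl1*, the dilated libraries stood at 16.7 and 6.67 CPM and the untreated ones at 10.8, 8.79 and 5.55 CPM, a shift of a few CPM.

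To compare the dilation effect on *Loxl1* between cell types, dilator muscle and 1 other cell type at a time entered a single fit in which every library had its own term. It was larger in dilator muscle than in ciliary body by 1.55 on the log2 scale (SE 0.35, edgeR adjusted p 0.00194) and than in ciliary body epithelium by 1.22 (SE 0.22, adjusted p 1.48e-05). Against iris PE the difference was 0.45 (SE 0.16, adjusted p 0.0776) and against sphincter 2 it was 0.74 (SE 0.32, adjusted p 0.318), neither past the threshold. Against stroma 2 it was 0.25 (SE 0.15, adjusted p 0.397) and against sphincter 1 0.14 (SE 0.32, adjusted p 0.896). A rise particular to dilator muscle is thus not shown.

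**Figure D4:**
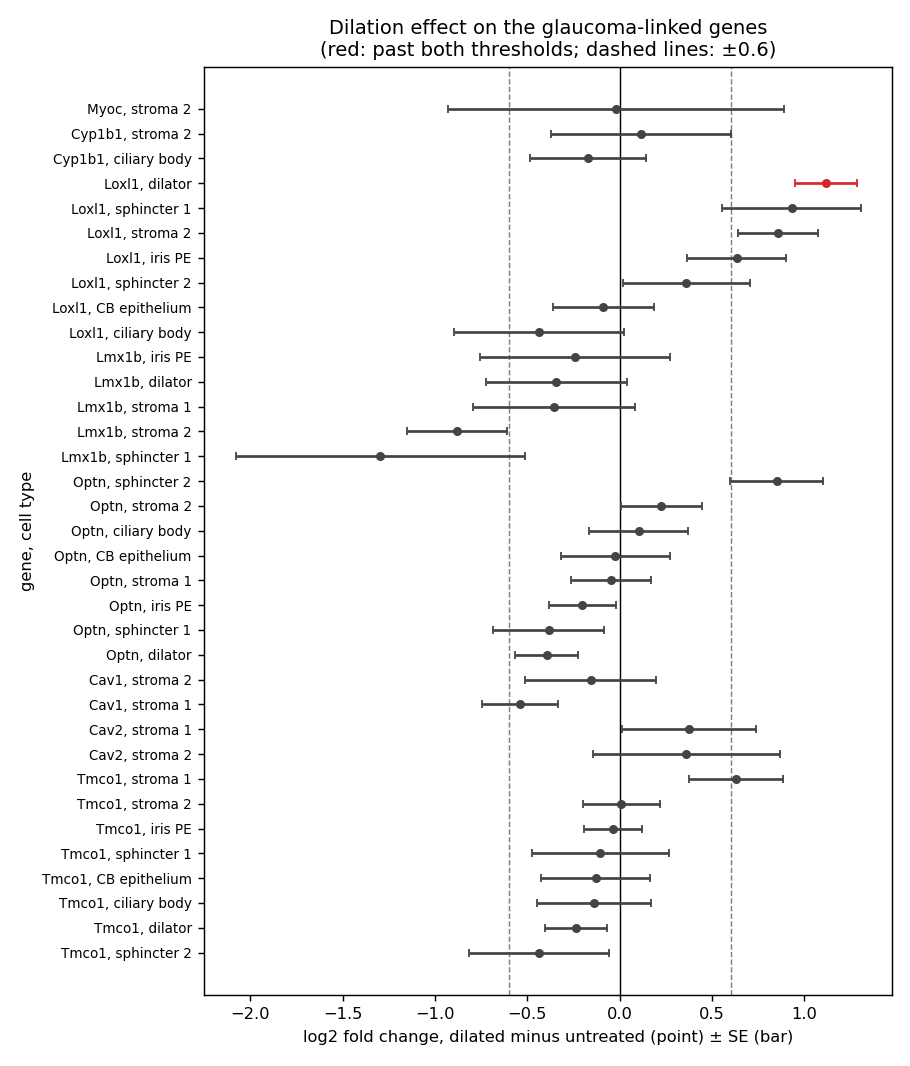
Log2 fold change of dilated against untreated libraries (horizontal axis, point) with its SE (bar) for the 35 gene and cell type pairs tested (vertical axis). Dashed lines mark the fold threshold of 0.6 in either direction. *Loxl1* in dilator muscle (red), at 1.12, is the 1 pair past both thresholds in the fit reported, which has no term for library series.

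Of the 35 pairs, both dilated libraries lay outside the untreated range in 12 (34.3%), 5 above and 7 below. Over all tests this share was 30.7%, with 12.2% above and 18.5% below, so that the members' share was near the background. *Lmx1b* in stroma 2 was the lowest of the well-counted pairs. Its dilated libraries stood at 520 and 280 CPM against 717 to 814 CPM untreated, a log2 fold change of -0.88 (SE 0.27) that was not called (edgeR adjusted p 0.168). Constricted libraries stood at 803, 601 and 421 CPM, so that 1 of them lay below the higher dilated library. Within the series with both conditions the dilated library stood at 0.726 and 0.361 of the untreated level. The constricted library of the same series stood at 1.12 and 0.543 of it. The summed stroma 2 markers, all 5 detected, also differed, at 5322 to 6616 CPM in untreated and 4651 to 5246 CPM in dilated stroma 2, and their part was not tested. With library series as a term the log2 fold change was -1.03 (SE 0.23, adjusted p 0.0284) and called. DESeq2 also called this gene, with an adjusted p of 0.0488, in a range of 0.000736 to 0.633 over the 16 other fits.

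*Optn* had fold changes of opposite sign in sphincter 2 and dilator muscle, neither of them called in the fit reported. In sphincter 2 the dilated libraries stood at 200 and 204 CPM (54 and 60 UMIs) against 91.6, 123 and 123 CPM untreated and 79.4 to 135 CPM constricted, a log2 fold change of 0.85 (SE 0.25, edgeR adjusted p 0.0603). With the series term it was 0.94 (SE 0.23, adjusted p 0.00969) and called, and with a replicate block 0.99 (SE 0.28, adjusted p 0.0347). In dilator muscle they stood at 121 and 159 CPM against 204, 206 and 222 CPM, a log2 fold change of -0.39 (SE 0.17, adjusted p 0.147). Without TMM the dilator value was -0.60 (adjusted p 0.0191, the lowest of the 16 other fits, the highest being 0.677). In sphincter 1 the dilated libraries stood at 94.6 and 95.4 CPM against 95.7 to 231 CPM untreated. The log2 fold change there was -0.39 (SE 0.30, edgeR adjusted p 0.757). The lowest untreated library of sphincter 2, replicate 1, rested on 26 nuclei. Differences between the muscles were not tested.

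*Cav1* in stroma 1 stood at 113 and 98.4 CPM after dilation, below the untreated 142 to 167 CPM, with a log2 fold change of -0.54 (SE 0.21, edgeR adjusted p 0.231). *Cav2* in the same nuclei gave 0.37 (SE 0.36, adjusted p 0.716). In stroma 2 *Cav1* stood at 19.1, 33.4 and 44.6 CPM in constricted libraries and at 18.1, 15.95 and 13.02 CPM in untreated ones, a log2 fold change of 1.08 (SE 0.31) with an adjusted p of 0.595. *Tmco1* in stroma 1 stood at 66.8 and 41.7 CPM after dilation against 34.1 to 35.9 CPM, a log2 fold change of 0.63 (SE 0.25, adjusted p 0.259). Constricted libraries, at 36.2 to 48.1 CPM, were also above the untreated ones, and the lower dilated library lay within their range.

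**Figure D5:**
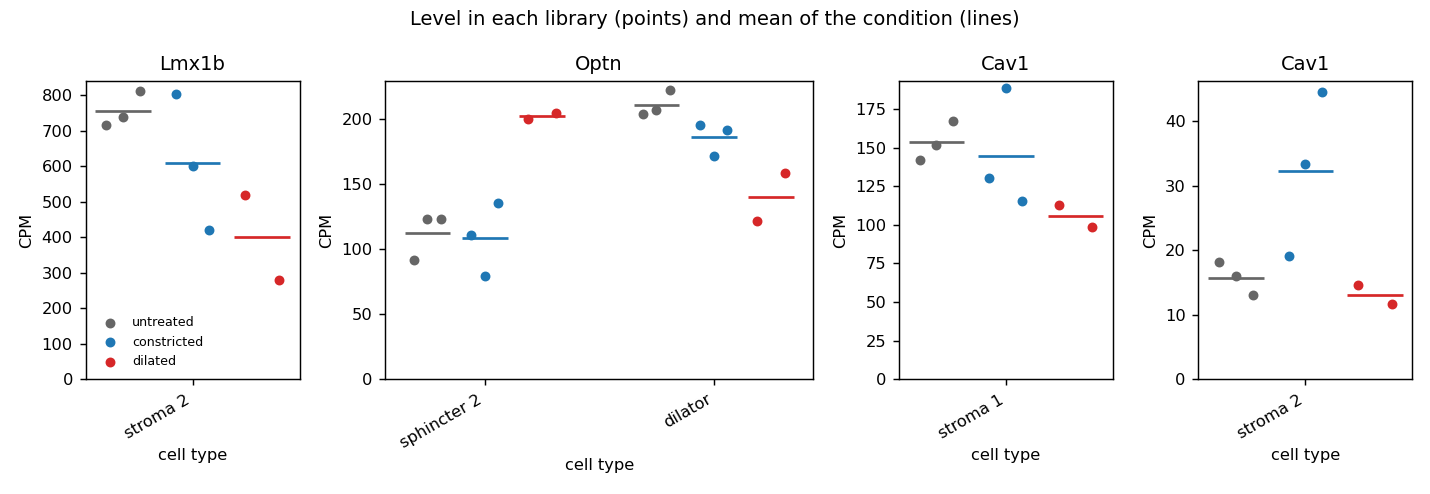
Levels in CPM (vertical axes) of *Lmx1b* in stroma 2, *Optn* in sphincter 2 and dilator muscle, and *Cav1* in stroma 1 and stroma 2, in each library (points) with the mean of each condition (lines). None of these shifts was called in the fit reported, which has no term for library series. The dilated *Optn* libraries in sphincter 2, at 200 and 204 CPM, sit above all others.

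*Myoc* in stroma 2 gave -0.02 (SE 0.91) with dilation and 1.03 (SE 0.80, edgeR adjusted p 0.998) with constriction, and *Cyp1b1* in ciliary body -0.17 (SE 0.31) and -0.60 (SE 0.33, adjusted p 0.961). Neither gene was called in either comparison.

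Lists of genes that work with the members were examined in the same fits, with a list of other genes linked to glaucoma or eye pressure. Together they are called the pathway lists here. The other glaucoma genes, described further below, gave 274 of the tests and, with dilation, 11 of the higher and 4 of the lower calls. Of 133 listed genes 128 were measured and 118 had enough UMIs to be tested, in 722 tests. With dilation 40 tests (5.54%) in 28 genes were called, 22 higher and 18 lower, against the 3.34% of all tests. The median log2 fold change was 0.02 over the listed genes and 0.002 over all tests. Dilator muscle held 23 of the calls, of 110 tests there (20.9%, against 13.3% of all its genes). With library series as a term 77 of the 722 were called. That term also raised calls over all genes in ciliary body (5 to 42) and ciliary body epithelium (1 to 26). The share of all tests called with it is not given here, so that the 77 cannot be set against the 3.34%. With constriction 0 of 722 were called by edgeR, where it called 0.0118% of all tests, and 3 by DESeq2. Over all genes DESeq2 called 24 in stroma 2 and 14 in sphincter 1, where edgeR called 2 and 0. In sphincter 2 it called fewer, 1 against 6. The edgeR share is thus not a background for the DESeq2 count. At an unadjusted p under 0.05 there were 58 (8.03%), against 5.25% of all tests.

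Shares of calls in the lists below stand against 3.34% of all tests. They are not matched for cell type, and in dilator muscle 13.3% of all genes were called. Genes of elastic fibers and of other lysyl oxidases had 3 calls higher and 3 lower in 74 tests (8.11%). *Ltbp1*, which binds latent TGF-beta to microfibrils, rose in dilator muscle from 26.8, 28.7 and 19.5 CPM to 122 and 96.0 CPM (log2 fold change 2.31, SE 0.22, edgeR adjusted p 4.68e-05). *Fbln5*, which brings lysyl oxidases to elastin, rose in stroma 1 from 70.0, 22.7 and 36.4 CPM to 109 and 148 CPM (1.74, SE 0.31, adjusted p 0.00817). *Fbn2*, a microfibril protein, rose in stroma 2 by 1.09 (SE 0.20, adjusted p 0.0216). *Efemp1*, another fibulin, fell in sphincter 2 from 34.1 to 43.7 CPM to 3.70 and 3.41 CPM (-3.22, SE 0.76, adjusted p 0.0130), the latter from few UMIs, and fell in dilator muscle by 0.84 on the log2 scale.

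Genes of the aryl hydrocarbon receptor pathway, which controls *Cyp1b1*, had 3 calls higher and 1 lower in 46 tests (8.70%). The receptor gene *Ahr* stood at 0, 3.44 and 2.83 CPM in untreated stroma 2 and rose to 24.3 and 26.3 CPM (log2 fold change 3.23, SE 0.44, edgeR adjusted p 0.00466), while it fell in sphincter 1 from 124, 60.6 and 52.4 CPM to 16.4 and 20.8 CPM (-1.80, SE 0.44, adjusted p 0.0308). In stroma 2 *Cyp1b1* itself gave 0.11 (SE 0.49). *Arnt2*, a partner subunit, and *Tiparp*, a target, rose in dilator muscle by 0.99 and 0.80.

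LIM factors related to *Lmx1b* and their partners had 0 calls higher and 3 lower in 70 tests (4.29%, near the 3.34% of all tests). The calls were *Lmo3* (-1.51) and *Lmo2* (-0.90) in dilator muscle and *Lmo4* (-0.77) in sphincter 2. Olfactomedin relatives of *Myoc* had 1 higher and 2 lower in 21 tests (14.3%). *Olfml2a* rose in sphincter 1 (1.25) and fell in dilator muscle (-1.01), where *Olfml1* also fell (-1.55). Autophagy partners of *Optn* had 1 each way in 105 tests (1.90%, below the share of all tests). *Gabarapl1*, which tags autophagosomes, rose in dilator muscle from 21.2 to 25.3 CPM to 43.0 and 47.9 CPM (1.08, SE 0.21, edgeR adjusted p 0.00440), and *Calcoco1*, a receptor of the same kind as optineurin, fell in stroma 1 (-1.61).

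Caveola genes had 2 calls higher and 3 lower in 56 tests (8.93%). The muscle caveolin *Cav3* (-1.52) and the coat gene *Cavin2* (-1.20) fell in dilator muscle from means of 5.52 and 8.77 CPM. *Ehd4*, a membrane-shaping ATPase, rose in stroma 2 (1.47) and dilator muscle (0.97) and fell in sphincter 1 (-1.50). The list around *Tmco1*, of translocon and calcium entry genes, had 1 each way in 76 tests (2.63%, below the 3.34% of all tests). The store sensor *Stim1* fell in dilator muscle from 296 to 338 CPM to 174 and 161 CPM (-0.71, SE 0.13, edgeR adjusted p 0.00319), and the channel *Orai1* rose there (0.92, SE 0.17, adjusted p 0.00319).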

How the data were processed

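Single nucleus RNA-seq libraries were prepared on the 10x Chromium platform. The authors aligned reads to a pre-mRNA index of mm10, in which introns count as well as exons, with Cell Ranger 3.1.0, removed nuclei by mitochondrial share and transcript number, and named cell types after clustering in Seurat. The deposited matrices hold UMI counts of each gene in each nucleus, as whole numbers and not normalized, beside the cell type and UMI total of each nucleus. Recounted totals differed from the deposited UMI totals in 180 to 634 nuclei of a library, by at most 13 UMIs.

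UMIs of the nuclei of 1 cell type in 1 library were added up and scaled to 1000000 UMIs (CPM). Genes passing filterByExpr were tested with edgeR 4.0.16 (R 4.3.3; TMM, glmQLFit and glmQLFTest, two-sided, all 8 libraries in 1 fit per cell type), with Benjamini-Hochberg adjustment. Tested on simulated counts for the dilated comparison in dilator muscle, the fit called 51.5% of 97 genes changed 2-fold and 99.0% of 99 changed 4-fold. For genes changed 2-fold it called 49.5% of 97 in stroma 2 and 9.89% of 91 in endothelial cells. Other cell types were not simulated. The simulation gave all genes the same spread between libraries and no effect of library series, so that these shares may not hold for a given gene. Doublets were predicted with Scrublet (scanpy 1.11.5) for an alternative only, in 0.0785 to 1.37% of nuclei. Other tools were DESeq2 1.42.0, Python 3.11.15, pandas 2.3.3, scipy 1.17.1 and matplotlib 3.10.9. Positions came from GENCODE vM21. A limit for 0 UMIs is 3 UMIs over the pooled UMIs of a condition. Replicates are libraries from separate pools of irides. The p-values rest on the spread between pools of a condition, estimated over all 3 conditions with information shared between genes. The fit reported has no term for library series, so that this spread includes differences between series.

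The members, lists and tests were chosen with earlier results of these data known. Named genes were the 8 members, the 3 genes most correlated with each (at least 300 untreated UMIs), and up to 4 called genes of each pathway list by absolute fold change. A few genes under this rule are not reported here. Alternatives were RLE scaling, library sizes only (chosen after seeing the data), DESeq2, no filter, a replicate block, a term for library series, only the 2 groups compared, no fold threshold, doublets left out and each library left out.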

Additional observations from a re-analysis of the deposited data

Results flagged for a closer look

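The dilation effect on *Loxl1*, as a log2 fold change, differed between dilator muscle and the ciliary cell types in the joint edgeR fits with a term for each library. It was 1.55 higher in dilator muscle than in ciliary body (SE 0.35, adjusted p 0.00194), where the dilated libraries stood at 41.9 and 27.5 CPM (75 and 8 UMIs) and the untreated ones at 40.4, 67.3 and 43.9 CPM. It was 1.22 higher than in ciliary body epithelium (SE 0.22, adjusted p 1.48e-05).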

How the results depend on the processing

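The rise of *Loxl1* in dilator muscle was called under all 16 other fits. The count of members called with dilation was 1 in the fit reported, 3 with DESeq2, 4 with library series as a term, 3 with no filter on low counts, 2 with only the 2 groups compared, and 1 to 3 with a library left out (2 without constricted replicate 2 or 3, 3 without dilated replicate 2). *Optn* in sphincter 2, *Lmx1b* in stroma 2 and *Loxl1* in stroma 2 were called in 5, 3 and 4 of the 16 fits and *Optn* in dilator muscle in 1. With constriction the count was 1 with no filter, *Cav1* in stroma 2 (adjusted p 0.0453). Pathway calls with dilation were 77 with the series term and 18 to 47 with a library left out (25 without dilated replicate 1, 19 and 18 without untreated replicates 2 and 3). With constriction they were 3 with DESeq2, 1 with the series term, 7 with no filter, and 0 to 3 with a library left out (3 without constricted replicate 1, 2 without either dilated replicate, 1 without untreated replicate 1). Shares of all tests called are not given here for these other fits, so that the counts are not set against a background. The cause of these shifts was not tested.

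A replicate block gave 2 member calls with dilation and 3 pathway calls with constriction. The deviations of same-numbered libraries correlated at 0.13 to 0.51 within a library series but at -0.04 to 0.003 across series, so that the numbers were not taken to pair the libraries.

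The order of the leading cell types did not hold everywhere. The log2 ratio of stroma 1 to endothelial cells for *Cav1*, 0.28 in the mean, was -0.082 with doublets left out, -0.012 over all 8 libraries and -0.0059 to 0.53 with an untreated library left out. That of stroma 2 to endothelial cells for *Myoc* was -0.27 to 0.59 with an untreated library left out, and that of dilator muscle to ciliary body for *Tmco1* was -0.0090 over all 8 libraries. Depth limits *Myoc*, *Cyp1b1* and all endothelial and leukocyte values, and the dilated group rests on 2 libraries.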

Other observations

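The list of other genes linked to glaucoma or eye pressure is part of the 133 genes and 722 tests of the pathway lists above. Of its 47 genes 40 had enough UMIs to be tested. It had 11 calls higher and 4 lower in 274 tests with dilation (5.47%, against 3.34% of all tests). Dilator muscle held 8 of these calls in 39 tests (20.5%, against 13.3% of all its genes). With constriction edgeR called 0 of the 274, where it called 0.0118% of all tests. At an unadjusted p under 0.05 there were 23 of 274, where 5.25% of all tests were. *Gpnmb*, whose mutation adds to pigment dispersion glaucoma in mice, rose in dilator muscle from 1843, 1944 and 2052 CPM to 7086 and 7431 CPM (log2 fold change 2.09, SE 0.17, edgeR adjusted p 1.56e-05), and also in leukocytes (1.86), sphincter 2 (1.68) and sphincter 1 (1.54). *Abca1*, a cholesterol exporter near a locus for open-angle glaucoma, rose in dilator muscle (1.88), leukocytes (1.68) and stroma 2 (1.36). *Adamts17*, a matrix protease gene, fell in dilator muscle from 10.6 to 17.3 CPM to 3.65 and 2.40 CPM (-2.08). *Col11a1*, a fibrillar collagen gene linked to angle closure, fell in dilator muscle (-1.70) and iris PE (-1.36).

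UMIs of both caveolin genes in 1 nucleus were counted over all libraries, with nuclei not matched on depth and no test made. In endothelial cells 15 of 43 nuclei with a *Cav2* UMI also had a *Cav1* UMI (34.9%, against 25.2% of the others), and in stroma 1 45 of 161 did (28.0%, against 24.5%).

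Of the 56 stroma 2 nuclei with a *Myoc* UMI, 60.7% also had an *Lmx1b* UMI, against 65.6% of the other 6707, and 78.6% had a *Tfap2b* UMI, against 94.5%. The other stroma 2 markers went both ways. *Pdgfra* was found in 60.7% against 67.8%, *Col1a1* in 28.6% against 29.3%, *Col1a2* in 58.9% against 48.8% and *Dcn* in 91.1% against 78.6%. Of 3 genes listed as markers of outflow tissue, *Chil1* had a UMI in 4 of the 56 nuclei (7.14%) and in 25 of the others (0.373%). *Angptl7* was found in 1 (1.79%) and 37 (0.552%), and *Rspo4* in 0 and 59 (0.880%). Nuclei were not matched on depth here and no test was made.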
